A study of Rattus norvegicus with 4 samples.

Results

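The metabotropic glutamate receptors are G protein-coupled receptors for the main excitatory transmitter of the brain. The 6 described here are Grm2 (ENSRNOG00000013171), Grm3 (ENSRNOG00000005519), Grm4 (ENSRNOG00000000487), Grm5 (ENSRNOG00000016429), Grm7 (ENSRNOG00000005662) and Grm8 (ENSRNOG00000021468). They were found by symbol, as 6 of the 30560 genes in the deposited feature lists. The data are single-nucleus RNA sequencing of the nucleus accumbens of Sprague-Dawley rats, 90 to 120 days old. They received intraperitoneal injections of cocaine (20 mg/kg) or of the same volume of physiological saline on 7 consecutive days, with an open-field recording, and were killed 1 hour after the last of these. The tissue was a 2 mm punch centred on the accumbens core, and nuclei were sorted before droplet capture with about 12500 loaded per library. Each of the 4 libraries (saline female, cocaine female, saline male, cocaine male) pools the tissue of 4 rats, 16 rats in all. The library is therefore the replicate, each treatment has 2, and each combination of sex and treatment has 1.

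Grm5 belongs to group I of the family, which couples to Gq proteins and phospholipase C, releases calcium from internal stores and is tied to the postsynaptic scaffold by Homer and Shank proteins. Grm2 and Grm3 form group II, and Grm4, Grm7 and Grm8 belong to group III. Both of these groups couple to Gi/o proteins, which lower cyclic AMP and transmitter release. In the striatum Grm5 is known from the dendrites of medium spiny neurons (MSNs), the GABAergic output cells that carry mostly either the D1 or the D2 dopamine receptor. Grm3 is known from glia as well as neurons, and group III receptors sit mostly on axon terminals. Receptors on axons that enter the accumbens from elsewhere are made from RNA in distant cell bodies, so nuclei of the punch show only receptors of cells that lie in it. Drugs acting on Grm5 and on group II receptors have been studied in animal models of cocaine seeking.

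The libraries held 31484217 to 40737786 UMIs (unique molecular identifiers, which count captured RNA molecules) in 6213 to 7265 barcodes, and 24843 nuclei were kept after filters and doublet removal. Of the barcodes, 81 occurred in more than 1 library. Clustering gave 23 clusters, and 18 of them were named from marker lists as 15 classes. The classes were rebuilt for this work, so their names end in "like" and may differ from those of the study. The receptors were left out of the genes used for clustering. Tests were run in the 13 classes with 25 or more nuclei in each library, which leaves out vascular-like (83 nuclei) and cholinergic interneuron-like nuclei (81). The numbers of nuclei differed between libraries, most in the glutamatergic-like class (30 in saline females, 252 in cocaine females, 49 in saline males, 116 in cocaine males) and in the other GABAergic class (783, 435, 374 and 283 in the same order). Median depth per nucleus was highest in the saline female library in all 15 classes.

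Levels are given as counts per 1000000 UMIs (CPM) of the class sum in a library, and as mean ± SD over the 4 libraries where a single value is printed. Where 4 values are printed, their order is saline female, cocaine female, saline male, cocaine male. The levels of a receptor across classes are a description without a test, since all classes come from the same 4 libraries. Of the vascular-like levels, Grm5 (1061 ± 713 CPM) rested on few nuclei, since 48 of its 146 UMIs came from 1 nucleus and the mean over nuclei was 295 CPM. The neuron list (Rbfox3, Snap25, Syt1) summed to 237 to 1826 CPM in vascular-like nuclei, against 84.7 to 123 CPM in astrocyte-like nuclei. Its part in the vascular-like levels was not tested.

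Grm5, the group I member, was highest in the main MSN classes. In D2-MSN-like nuclei its level was 4408, 4432, 4346 and 4429 CPM. In D1-MSN-like nuclei it was 4112, 4091, 4164 and 4125 CPM, so that each D1 value lay below each D2 value. These classes held 33.2% (D2) and 46.1% (D1) of the Grm5 UMIs of all nuclei. The order went on with D2/eccentric MSN-like (2796 ± 155 CPM), Chst9/eccentric MSN-like (1997 ± 44.5 CPM) and other GABAergic nuclei (1783 ± 310 CPM), of which the last overlapped with the Chst9/eccentric class. Eccentric MSNs are a transcriptionally distinct minority type of spiny neuron, and Chst9 marks spiny neurons of island-like groups. The MSN marker list summed to 2520 to 3088 CPM in eccentric/D1 MSN-like nuclei, so this class is the least sure of the spiny classes. It summed to 5244 to 8916 CPM in the other spiny classes and to 1840 to 2239 CPM in other GABAergic nuclei. Glutamatergic-like nuclei (1486 ± 53.4 CPM) lay just above Pthlh interneuron-like nuclei (1280 ± 103 CPM), and eccentric/D1 MSN-like nuclei (1288 ± 446 CPM) overlapped with both. Sst interneuron-like nuclei, which make somatostatin, held 826 ± 101 CPM, and the ratio of D1-MSN-like to Sst interneuron-like means was 4.99.

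Among glia Grm5 was carried by oligodendrocyte precursor-like nuclei, the cells that divide and give rise to oligodendrocytes, at 710, 784, 768 and 733 CPM. Oligodendrocyte-like nuclei held 45.9 ± 15.5 CPM, a ratio of means of 16.3 and of 11.3 to 20.6 within libraries. Microglia-like nuclei held 62.2 ± 18.4 CPM and astrocyte-like nuclei 178 ± 74.2 CPM. The lowest astrocyte-like value was above the highest microglia-like one, while the microglia-like and oligodendrocyte-like ranges overlapped.

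Classes differ in depth, so the share of nuclei with at least 1 UMI was compared after thinning each nucleus to 1000 UMIs and leaving out shallower nuclei. A Grm5 UMI was then seen in 97.1% of D2-MSN-like, 96.5% of D1-MSN-like, 42.5% of oligodendrocyte precursor-like and 5.02% of microglia-like nuclei. The unthinned shares were 99.8%, 99.5%, 73.5% and 7.64% in the same order of classes. Thinning left out 5, 35, 3 and 134 nuclei of these classes. The microglia-like share is given for comparison, as that of a class with little of the gene, and the part of free RNA and misassigned nuclei in it was not tested. The median depth of that class was 1349 UMIs, against 7390 UMIs in D2-MSN-like nuclei.

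Grm3, the group II receptor of glia, was highest in oligodendrocyte-like nuclei at 7273, 6620, 6408 and 6121 CPM. This class held 57.2% of all Grm3 UMIs, and 99.2% of its nuclei carried at least 1 (98.2% after thinning). Vascular-like (2262 ± 647 CPM) and astrocyte-like nuclei (1800 ± 291 CPM) followed with overlapping ranges, and the ratio of oligodendrocyte-like to astrocyte-like means was 3.67. Oligodendrocyte precursor-like nuclei held 25.5 ± 9.64 CPM, which made the ratio of oligodendrocyte-like to precursor-like means 259, with 200 to 387 within libraries.

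In neurons Grm3 was highest in D2-MSN-like (698 ± 40.3 CPM) and D1-MSN-like nuclei (606 ± 41.4 CPM), whose ranges did not overlap. Chst9/eccentric MSN-like nuclei held 382 ± 26.8 CPM, below each D1-MSN-like value. The lowest levels were in eccentric/D1 MSN-like (23.6 ± 37.6 CPM), microglia-like (17.3 ± 13.5 CPM) and Sst interneuron-like nuclei (14.6 ± 5.09 CPM), which overlapped. Of the 19 Grm3 UMIs of eccentric/D1 MSN-like nuclei most were in the saline female library, at 79.9 CPM against 3.09, 6.51 and 4.96 CPM in the others.

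Grm2, the group II receptor known as an autoreceptor of excitatory terminals, was sparse, with 254 UMIs over all nuclei. The other GABAergic class held 55.1% of them, at 8.93 ± 2.72 CPM. Cholinergic interneuron-like nuclei, the acetylcholine-releasing cells of the striatum, had the highest mean, at 28.6 ± 24.0 CPM. A Grm2 UMI was seen there in 33.3% of 81 nuclei (exact binomial 95% interval 23.2 to 44.7%), and in 3.70% after thinning. These nuclei were the deepest of all classes, with a median of 10785 UMIs. By library the unthinned shares were 27.8%, 44.8%, 34.6% and 0%, and the last comes from 8 nuclei, too few to show a low share. D1-MSN-like nuclei were at 0.134 CPM and D2-MSN-like nuclei at 0.0360 CPM. In 5 classes no Grm2 UMI was found, among them the 1004 oligodendrocyte precursor-like nuclei, which allows a share of up to 0.299% of nuclei with a UMI (3 counts over 1004 nuclei).

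**Figure D1:**
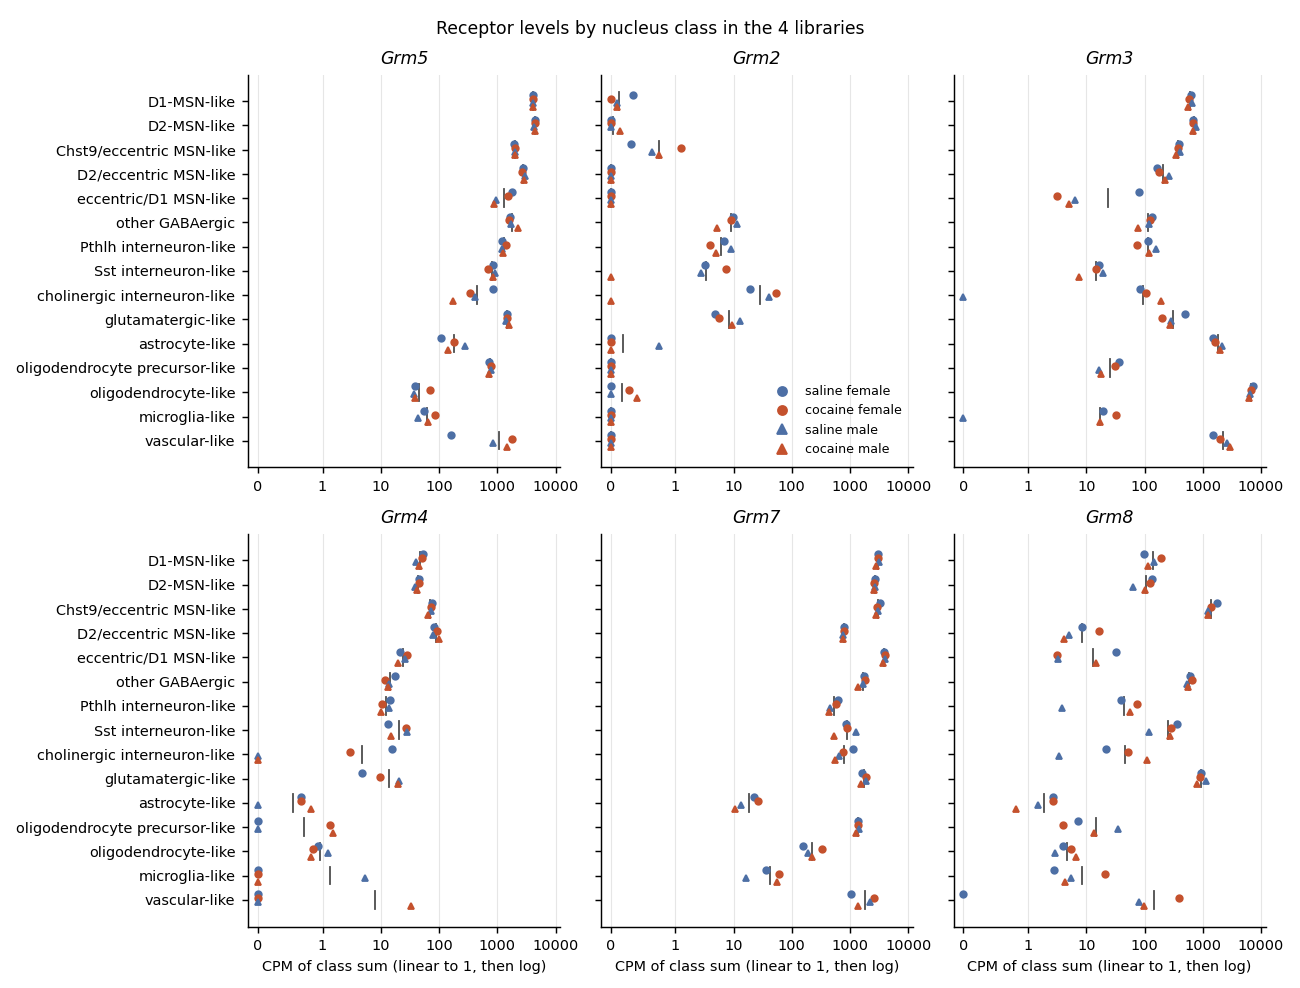
Level of each of the 6 receptors (x axis, CPM of the class sum, linear to 1 and then logarithmic) in the 15 named classes (y axis), with 1 point per library, blue for saline and orange for cocaine, circles for females and triangles for males, and a bar at the mean. Grm5 is highest in D2-MSN-like and D1-MSN-like nuclei (means of 4404 and 4123 CPM), Grm3 in oligodendrocyte-like nuclei (6605 CPM), and Grm8 in Chst9/eccentric MSN-like nuclei (1398 CPM).

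Of the group III receptors, Grm7, known for its low affinity for glutamate and its place at the active zone of terminals, was seen in every neuronal class. Eccentric/D1 MSN-like nuclei were highest at 3835, 3940, 3937 and 3677 CPM. This class was led by the genes Stac and Ankfn1, with Drd3 also among its top genes. Chst9/eccentric MSN-like (3008 ± 195 CPM) and D1-MSN-like nuclei (2994 ± 140 CPM) overlapped, and D2-MSN-like nuclei held 2642 ± 51.4 CPM, each value below the D1 ones. D2/eccentric MSN-like nuclei, which share Drd2 with the D2 class, held 784 ± 21.1 CPM, so the ratio of D2-MSN-like to D2/eccentric means was 3.37, with 3.26 to 3.52 within libraries. For this receptor the D2/eccentric class thus lay among the interneurons and not among the other spiny classes. Oligodendrocyte precursor-like nuclei held 1348 ± 67.7 CPM, more than Pthlh interneuron-like nuclei (522 ± 88.3 CPM). Astrocyte-like nuclei were lowest, at 18.3 ± 7.59 CPM.

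After thinning, a Grm7 UMI was seen in 95.9% of eccentric/D1 MSN-like, 67.3% of oligodendrocyte precursor-like and 1.86% of astrocyte-like nuclei. Without thinning the shares were 99.4%, 90.2% and 5.31%. These classes had like median depths, of 2918, 2810.5 and 3082 UMIs, so the contrast between precursor-like and astrocyte-like nuclei is one of level at like depth.

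Grm8, a group III receptor with high affinity for glutamate, gave the widest contrast among spiny neurons. Chst9/eccentric MSN-like nuclei held 1730, 1397, 1234 and 1231 CPM, and 43.4% of all Grm8 UMIs. D2/eccentric MSN-like nuclei held 8.36, 16.3, 5.09 and 4.17 CPM, so the ratio of the means was 165, with 85.6 to 295 within libraries. Glutamatergic-like (935 ± 142 CPM), other GABAergic (588 ± 42.2 CPM) and Sst interneuron-like nuclei (258 ± 99.4 CPM) came next, each without overlap with the one before. D1-MSN-like (137 ± 40.8 CPM) and D2-MSN-like nuclei (107 ± 33.0 CPM) overlapped. In glia the means were low, with 4.73 ± 1.61 CPM in oligodendrocyte-like and 1.91 ± 0.915 CPM in astrocyte-like nuclei.

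Grm8 also differed between clusters of the same class. The D1-MSN-like class is made of cluster 2, led by Ebf1 (3099 nuclei), and cluster 5, led by Htr4, a serotonin receptor gene (1855 nuclei). Cluster 2 held 24.9, 34.5, 13.8 and 13.6 CPM of Grm8 and cluster 5 held 304, 413, 299 and 291 CPM. Every library showed the gap, with a ratio of means of 15.1 and ratios of 12.0 to 21.6 within libraries. Median depth was 7703 UMIs in cluster 2 and 7695 UMIs in cluster 5.

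A finer clustering (Leiden resolution 1.0), split out here after the levels were known, parted the Chst9/eccentric MSN-like class in the same way. A Chst9-led group of 1027 nuclei held 3054, 2873, 2913 and 2830 CPM of Grm8. A group of 928 nuclei led by Slit3 and Tac1 held 250, 276, 153 and 191 CPM. Grm5 was alike in both, at 1973 and 2013 CPM over all their nuclei, and so was Grm3, at 382 and 385 CPM. The top 5% of nuclei held 22.8% of the Grm8 UMIs of the Chst9/eccentric class, 48.6% of those of D2-MSN-like nuclei and 90.1% of those of cluster 2, so in the last the gene rested on few nuclei (210 of 3099 with a UMI).

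**Figure D2:**
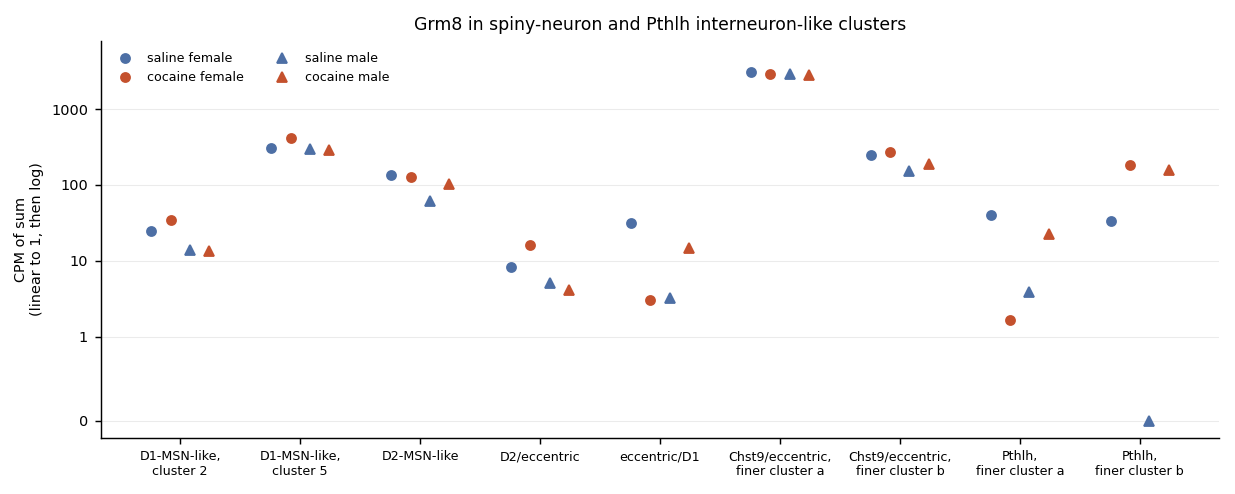
Grm8 level (y axis, CPM of the sum, linear to 1 and then logarithmic) in spiny-neuron clusters and in the 2 finer clusters of the Chst9/eccentric MSN-like and of the Pthlh interneuron-like class (x axis), with 1 point per library, blue for saline, orange for cocaine, circles for females and triangles for males. In every library cluster 5 lies above cluster 2, and finer cluster a of the Chst9/eccentric class (2931 CPM over all its nuclei) above finer cluster b (216 CPM).

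Grm4, a group III receptor with low levels here, was highest in D2/eccentric MSN-like nuclei at 80.8, 92.5, 80.1 and 98.7 CPM, in contrast to Grm7 and Grm8. Chst9/eccentric MSN-like nuclei followed without overlap at 71.3 ± 4.33 CPM, and the ratio of D2/eccentric to D2-MSN-like means was 2.06. D1-MSN-like (47.4 ± 5.79 CPM) and D2-MSN-like nuclei (42.8 ± 3.15 CPM) overlapped. Each of the 5 spiny classes lay above the other GABAergic class (14.2 ± 2.28 CPM) in every library. Oligodendrocyte-like, precursor-like and astrocyte-like means were below 1 CPM.

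Counting all 6 receptors in nuclei thinned to 1000 UMIs, 2.45 were seen per D1-MSN-like and 2.44 per D2-MSN-like nucleus. Chst9/eccentric MSN-like nuclei had the highest count, of 2.59, while D2/eccentric MSN-like nuclei had 1.61, astrocyte-like nuclei 0.854 and microglia-like nuclei 0.114. Grm5 and Grm7 were seen together in 89.2% of D1-MSN-like nuclei, which is also the product of their separate shares. In Pthlh interneuron-like nuclei they were seen together in 11.7%, where the product gives 17.2%, and this class divides into unlike groups described with its cocaine comparison.

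Genes whose mean levels over the 15 classes were like those of each receptor were ranked by Pearson's r of log2(CPM + 1) among 10383 genes. The 15 points share libraries and depth, and r is a description. Near the top for Grm5 were Ccdc30 (r = 0.96) and Cntn3 (0.95), and at the top for Grm3 were Gk5 (0.84), Ippk (0.82) and Slc25a10 (0.81). Grm2 was followed by Tspan17 (0.94), Ass1 (0.94) and Kcnk9 (0.94), and Grm4 by Bcl11b (0.95), a transcription factor of MSNs, Rgs8 (0.94) and Elmod1 (0.94). Grm7 was followed by Jph3 (0.92), Lrrc7 (0.92) and Pcsk2 (0.91), and Grm8 by Slc35f4 (0.85), Osbpl10 (0.78) and Frmpd4 (0.78).

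Across the clusters of the oligodendrocyte lineage the receptors took different courses. Oligodendrocyte precursor-like nuclei (cluster 8) had Grm5 at 710 to 784 CPM, Grm7 at 1252 to 1412 CPM and Grm3 at 16.6 to 36.4 CPM. Cluster 16, 148 nuclei left unnamed and led by Bcas1, Tmem108 and Enpp6, had Grm5 at 7.65 to 21.5 CPM, Grm3 at 15.3 to 222 CPM and Grm7 at 152, 472, 524 and 475 CPM. Oligodendrocyte-like cluster 0 (5190 nuclei) had Grm3 at 6814 to 7977 CPM with Grm7 at 81.1 to 145 CPM, and cluster 7 (1050 nuclei) had Grm3 at 4211 to 4678 CPM with Grm7 at 9.03 to 29.8 CPM.

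Cluster 12, 415 oligodendrocyte-like nuclei led by Mobp, Mbp and Mog, had both receptors. Its Grm3 level was 5104 to 6234 CPM and its Grm7 level 1035, 2469, 622 and 1117 CPM, so that 1687 of the 2803 Grm7 UMIs of the oligodendrocyte-like class lay here. The ratio of cluster 12 to cluster 7 means was 66.9 for Grm7. A Grm7 UMI was seen in 57.6% of these nuclei, 43 nuclei carried 10 or more, and the highest 3 carried 74, 68 and 66, all in the cocaine female library. The neuron list summed to 78.5, 174, 43.5 and 64.0 CPM and Grm5 to 59.8, 174, 13.7 and 8.73 CPM in cluster 12, both highest in the cocaine female library like Grm7. In nuclei with at most 1 UMI over 10 neuron and MSN markers, Grm7 was at 549 CPM (13 nuclei), 744 CPM (31), 635 CPM (56) and 995 CPM (50). In nuclei with no UMI of these markers it was at 179 CPM (7 nuclei), 1078 CPM (13), 476 CPM (18) and 810 CPM (26). Under both restrictions the level was above that of all nuclei of clusters 0 and 7 in each library. The restrictions were not applied to clusters 0 and 7, so unlike sets of nuclei are compared. The cocaine male library was highest under the first and the cocaine female library under the second, from few nuclei in each. The saline female value under the second rests on 4 Grm7 UMIs. A limit on marker UMIs can also pick shallower nuclei, and the part of neuronal RNA in these levels was not tested.

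**Figure D3:**
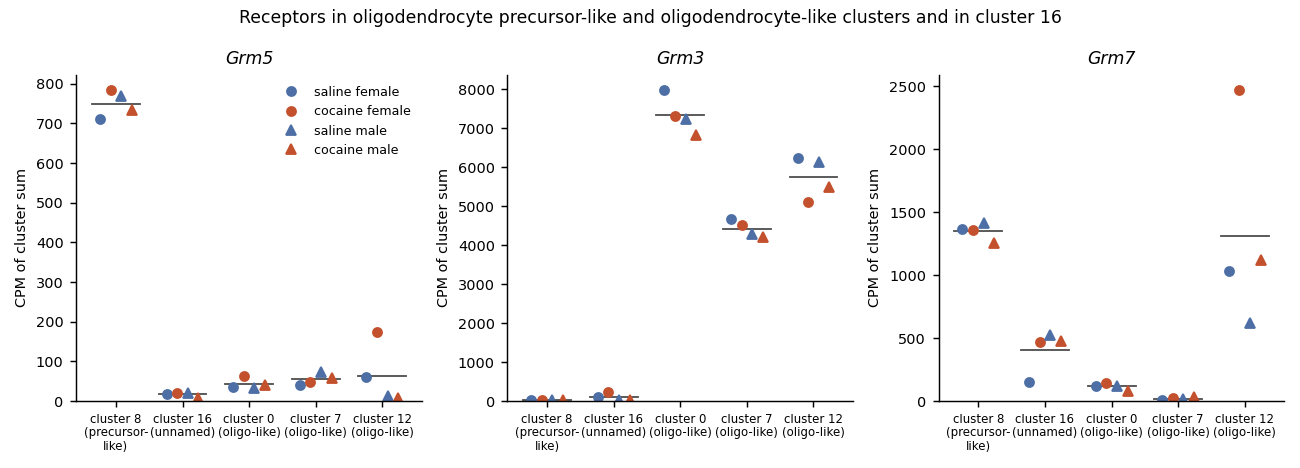
Grm5, Grm3 and Grm7 levels (y axes, CPM of the cluster sum, linear) in the oligodendrocyte precursor-like cluster 8, the unnamed cluster 16 and the oligodendrocyte-like clusters 0, 7 and 12 (x axis), with 1 point per library, blue for saline, orange for cocaine, circles for females, triangles for males, and a bar at the mean. Grm5 stands out in cluster 8 (mean 749 CPM), Grm3 in clusters 0, 7 and 12, and Grm7 in clusters 8 and 12, where the cocaine female library is at 2469 CPM.

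The main comparison asked whether the receptors differed between repeated cocaine and saline within each class. Raw UMIs were summed per library and class and fitted with edgeR's quasi-likelihood test over all genes, with sex as a covariate and Benjamini-Hochberg adjustment within the class. With 2 libraries a group and 1 residual degree of freedom, the spread of a gene is taken mostly from the trend over other genes. Fits with 1 library left out, given below, also dropped the sex covariate. With all 4 libraries and no sex covariate, 0 of 52 receptor and class pairs passed. Of 78 receptor and class pairs, 52 had enough UMIs to be tested and 26 did not, among them every Grm2 pair except that in other GABAergic nuclei. An edgeR adjusted p under 0.05 was reached by 3 pairs, 2 of them higher and 1 lower after cocaine. They were Grm8 in Pthlh interneuron-like, Grm7 in oligodendrocyte-like and Grm7 in Sst interneuron-like nuclei. Before adjustment 11 pairs had a p under 0.05, and DESeq2 called 0 of the 52. In 23 of the 52 pairs the saline and cocaine values did not overlap. Over all tested genes of a class, 0 to 1.82% were called, 2.61 to 10.4% had an unadjusted p under 0.05 and 32.2 to 38.2% did not overlap.

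In D1-MSN-like nuclei none of 5 tested receptors was called, where 0.158% of all tested genes were, and 1 of the 5 did not overlap between treatments (34.1% of all genes). In D2-MSN-like nuclei none of 5 was called (all genes 0.798%) and 2 did not overlap (34.0%). In each class 1 receptor had an unadjusted p under 0.05. For Grm5 the values given above overlapped in D1-MSN-like nuclei, with a fitted log2 difference (cocaine minus saline) of -0.03 (SE 0.07, edgeR adjusted p = 0.931). In D2-MSN-like nuclei the Grm5 difference was -0.03 (SE 0.06, edgeR adjusted p = 0.942), while both cocaine values in CPM were above both saline values, so the sign differs between CPM and the TMM-scaled fit. Grm7 differed by -0.09 in each class (SE 0.08 in D1, 0.07 in D2), and Grm4 by 0.00 and 0.01 (SE 0.09 and 0.11). These tests do not show that the levels were equal, and they could miss differences well above the SE. Grm3 in D1-MSN-like nuclei, at -0.19 with an SE of 0.07, was not called.

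Grm3 in D1-MSN-like nuclei stood at 640 (females) and 643 CPM (males) after saline and at 579 and 562 CPM after cocaine. The groups did not overlap, and the fitted log2 difference was -0.19 (SE 0.07, edgeR adjusted p = 0.520). In D2-MSN-like nuclei Grm3 was at 677 and 757 CPM after saline and at 668 and 691 CPM after cocaine, which overlap (log2 -0.12, SE 0.07, edgeR adjusted p = 0.592). The fitted Grm3 difference was below 0 in all 10 classes where it was tested, from -0.81 in glutamatergic-like to -0.01 in astrocyte-like nuclei. It was called in none, although 5 classes had an unadjusted p under 0.05, and the classes share their 4 libraries. The smallest edgeR adjusted p was 0.0836, in Pthlh interneuron-like nuclei, at 114 and 160 CPM after saline and 74.7 and 118 CPM after cocaine, which overlap. The log2 difference of Grm3 there was -0.58, and it passed with a minimum of 10 UMIs in place of the edgeR filter (-0.59, edgeR adjusted p = 0.0447), without the cocaine male library (-0.90, 0.00855) and under a marker gate on single nuclei (-0.69, 0.00305).

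Grm8 in D2-MSN-like nuclei was at 136, 126, 62.3 and 103 CPM, with the saline male library apart from the others. The fitted log2 difference was 0.22 (SE 0.09, edgeR adjusted p = 0.289). Without the saline female library it was 0.83 (edgeR adjusted p = 8.69e-08), and the saline male library was then the only saline one. In D1-MSN-like nuclei Grm8 was at 99.7, 192, 144 and 114 CPM, so the cocaine female library was highest, the saline female library lowest and the groups overlapped. The difference was 0.28 (SE 0.23), and it ran from -0.14 without the cocaine female library to 0.65 without the cocaine male library. A direct test of the difference between the cocaine effects in the D1 and D2 classes called none of the 5 receptors tested (edgeR adjusted p 0.907 to 1.00, where 0.0682% of all genes were called).

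In the other spiny classes no receptor was called, and none had an unadjusted p under 0.05. All 5 tested receptors missed the threshold in Chst9/eccentric MSN-like nuclei (all genes 0.0870%), but 4 of the 5 did not overlap (34.5% of all genes). Among these Grm7 was at 3255 and 3061 CPM after saline and at 2910 and 2807 CPM after cocaine (log2 -0.16, SE 0.10, edgeR adjusted p = 0.741). The Grm8 difference in this class was -0.18, and without the saline male library it was -0.40 and passed (edgeR adjusted p = 0.0246). D2/eccentric MSN-like nuclei had no call among 4 receptors (0.243%) and 1 without overlap (34.6%), which was Grm4 at 80.8 and 80.1 CPM after saline and 92.5 and 98.7 CPM after cocaine (log2 0.23, SE 0.20). Eccentric/D1 MSN-like nuclei had no call among 2 (1.66%) and none without overlap (35.2%). In clusters 2 and 5 of the D1 class none of 5 was called (2.01% and 0.820% of all genes), and in each 1 had an unadjusted p under 0.05. In both clusters Grm3 alone did not overlap (35.1% and 33.6% of all genes).

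Outside the spiny neurons there was no call among the 6 receptors of other GABAergic nuclei (0% of all genes), with 2 of them not overlapping (34.6%), or among the 5 of glutamatergic-like nuclei (0%), with 3 not overlapping (34.3%). The 3 tested in astrocyte-like nuclei were not called (1.37%) and all overlapped (background 35.7%). The 3 of oligodendrocyte precursor-like nuclei were not called (0.0238%), and 1 did not overlap (32.2%). Unadjusted, 1 receptor each in other GABAergic, glutamatergic-like and microglia-like nuclei had a p under 0.05. In microglia-like nuclei neither of 2 was called (0.145%), and for both the groups did not overlap (35.1%). There Grm7 was at 35.6 and 16.1 CPM after saline and 59.6 and 55.9 CPM after cocaine (log2 1.01, SE 0.46, edgeR adjusted p = 0.628), from 49 UMIs, while the neuron list was at 60.3 and 80.5 CPM after saline and 122 and 94.7 CPM after cocaine. Over all nuclei, where class shares differ between libraries, none of 6 was called (0.0484%) and 2 did not overlap (33.8%), and fewer cells of a type and less RNA per cell cannot be told apart in such sums.

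**Figure D4:**
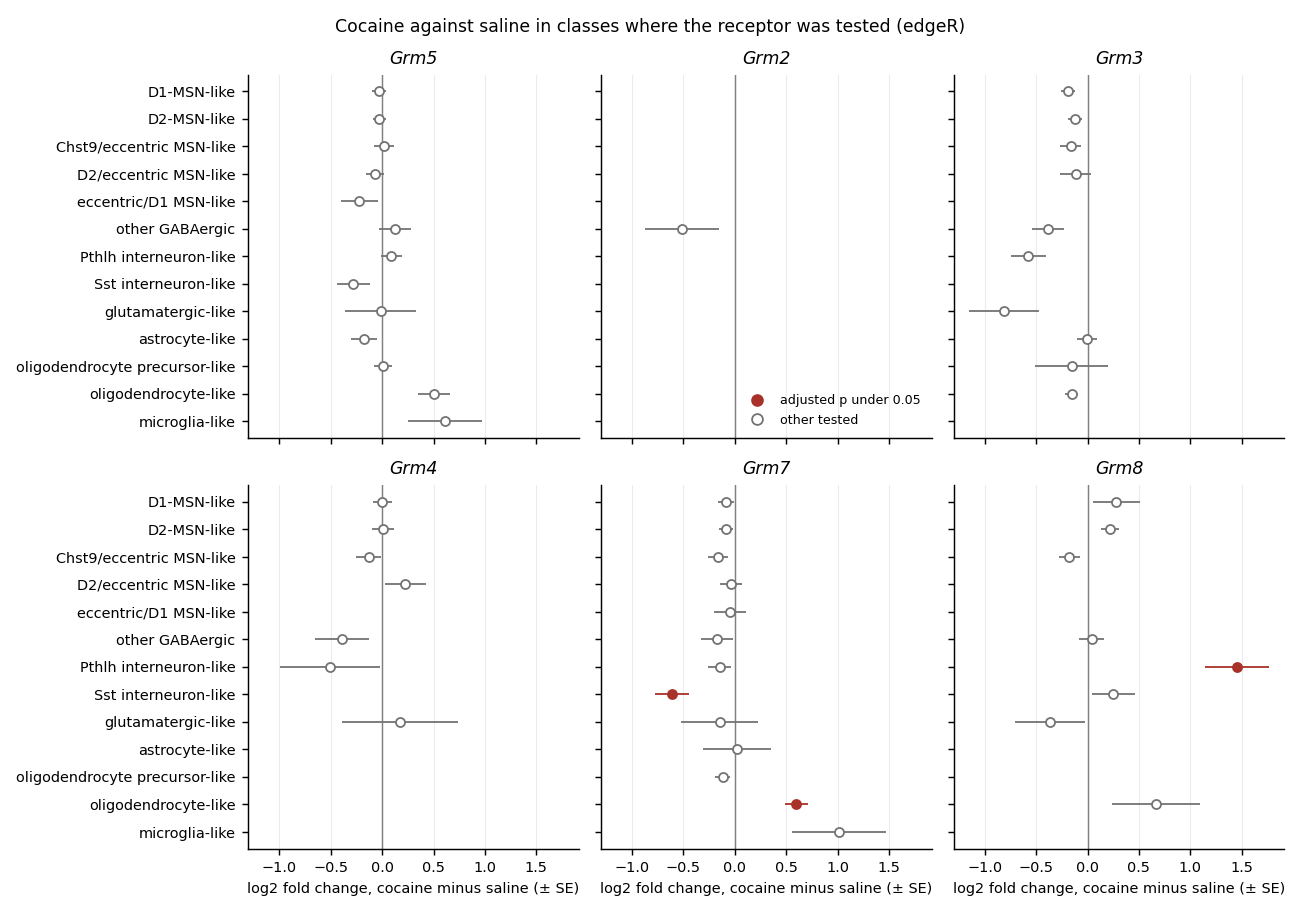
Fitted log2 fold change, cocaine minus saline, with its standard error (x axis) for each receptor in the classes where it was tested (y axis), where filled points passed an edgeR adjusted p of 0.05. These are Grm8 in Pthlh interneuron-like (1.46), Grm7 in Sst interneuron-like (-0.61) and Grm7 in oligodendrocyte-like nuclei (0.60), and all 10 Grm3 points lie below 0 without passing.

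Grm8 rose in Pthlh interneuron-like nuclei, a class of fast-spiking and related interneurons, on few UMIs. There were 41, 78, 3 and 34 UMIs, which is 39.7, 75.6, 3.82 and 56.7 CPM. Both cocaine values were above both saline values. The fitted log2 difference was 1.46 (SE 0.31, edgeR adjusted p = 0.00493), the only call among 5 receptors where 1.82% of all genes were called, and 3 of the 5 did not overlap (38.2% of all genes). The UMIs came from 37 of 505 nuclei, and 1 nucleus gave 25 of the 41 in saline females and another 26 of the 78 in cocaine females. Without the saline male library the difference was 0.71 (edgeR adjusted p = 0.558), and without the cocaine female library 1.18 (0.140). Without the saline female library it was 4.05 (edgeR adjusted p = 0.00128).

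The class held unlike nuclei in unlike numbers. At resolution 1.0, 78 of the 505 nuclei, led by Reln, Zfp804b and Tox3, formed a cluster of their own, with 6, 49, 3 and 20 nuclei in the 4 libraries and 2, 77, 0 and 24 Grm8 UMIs. The other 427 nuclei held 39, 1, 3 and 10 Grm8 UMIs, and there the log2 difference was -1.14 (edgeR adjusted p = 0.810). Most Grm8 UMIs of the cocaine libraries thus lay in the smaller group, which had few nuclei in the saline libraries. The Sst interneuron list moved with the same libraries, at 10.7 and 14.0 CPM after saline and 137 and 118 CPM after cocaine over the whole class. Its part in the Grm8 result was not tested.

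Grm7 fell in Sst interneuron-like nuclei, of which the libraries held 39, 71, 69 and 57. Its level was 841, 878, 1255 and 527 CPM, from 255, 355, 452 and 141 UMIs. The groups overlapped, and of the sexes only the males showed the direction of the call. The fitted log2 difference was -0.61 (SE 0.16, edgeR adjusted p = 0.0444), the only call among 3 receptors where 0.441% of all genes were called, and 1 of the 3, Grm5, did not overlap (37.3% of all genes). Without the saline male or the cocaine male library the difference was -0.28 in each case (edgeR adjusted p = 0.827 and 0.980), and without the cocaine female library it was -1.07 (0.782). In saline males 1 nucleus carried 59 of the 452 UMIs, and the highest in cocaine males carried 12. The MSN list summed to 1804, 2371, 1427 and 2835 CPM in this class, higher after cocaine, and its part in the result was not tested.

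Grm7 rose in oligodendrocyte-like nuclei, from 159 CPM in saline females and 188 CPM in saline males to 325 CPM in cocaine females and 219 CPM in cocaine males. The groups did not overlap, and the larger step was in females. The fitted log2 difference was 0.60 (SE 0.12, edgeR adjusted p = 0.00387), the only call among 4 receptors where 0.813% of all genes were called, and 3 of the 4 did not overlap (32.7% of all genes). Grm5 was at 38.0, 69.1, 37.4 and 39.3 CPM there and missed the threshold (log2 0.50, SE 0.15, edgeR adjusted p = 0.147). The neuron list summed to 63.4, 115, 56.7 and 86.9 CPM in the class, also with both cocaine values above both saline ones. Its part in the Grm7 result was not tested.

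Cluster 12 held most of these Grm7 UMIs, with 63, 86, 142 and 124 nuclei, and its values given above were higher after cocaine in each sex. In cluster 0 Grm7 was at 122, 145, 117 and 81.1 CPM, higher after cocaine in females and lower in males. Without the cocaine female library the class difference was 0.27 and did not pass, without the saline female library it was 0.50 (edgeR adjusted p = 0.275). Leaving out the cocaine male library gave 0.87 (0.739), and leaving out the saline male library gave 0.71, which passed (edgeR adjusted p = 0.0156). With doublets kept it was 0.12 (edgeR adjusted p = 0.856), in a class whose Grm7 mean was then 695 CPM.

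Each sex has 1 library per treatment, so the ratio of cocaine to saline CPM within a sex has a counting interval and no test. For Grm7 in Sst interneuron-like nuclei the log2 ratio was 0.06 in females (95% counting interval -0.17 to 0.29) and -1.25 in males (-1.52 to -0.97). For Grm7 in oligodendrocyte-like nuclei it was 1.03 (0.90 to 1.17) in females and 0.22 (0.03 to 0.40) in males. Both called Grm7 differences therefore rested more on 1 sex. Grm8 in D1-MSN-like nuclei had 0.95 (0.83 to 1.06) in females and -0.34 (-0.45 to -0.22) in males. These intervals cover the counting of molecules and not the spread between rats or nuclei.

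The clusters of the D1-MSN-like class differed in Grm8, as given above, and also in number by library. Cluster 2 had 619, 825, 751 and 904 nuclei and cluster 5 had 234, 551, 610 and 460. Cluster 5 was thus the smaller part of the class in every library. Its share was lowest in saline females, the library with the lowest Grm8 level of the class. Within cluster 5 the log2 ratio of Grm8 was 0.44 (0.32 to 0.56) in females and -0.04 (-0.15 to 0.08) in males. Within cluster 2 it was 0.47 (0.18 to 0.76) in females and -0.02 (-0.46 to 0.42) in males, so in each cluster it was smaller than in the class sum.

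**Figure D5:**
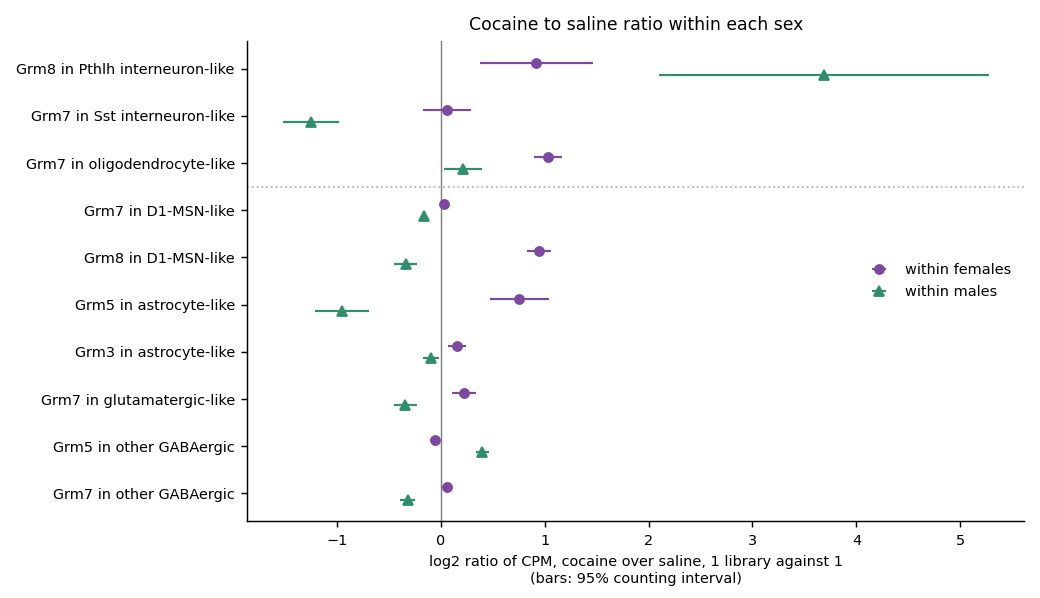
Log2 ratio of cocaine to saline CPM within females (circles) and within males (triangles), 1 library against 1, with 95% counting intervals (x axis), for the 3 called pairs above the dotted line and 7 pairs whose intervals lie on opposite sides of 0 below it (y axis). Grm8 in D1-MSN-like nuclei stands at 0.95 in females and -0.34 in males, and Grm5 in astrocyte-like nuclei at 0.76 and -0.95.

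The crossed design also compares females with males, with treatment as the covariate in the same fit. Both female libraries are labelled replicate 1 and both male libraries replicate 2. A difference between the sexes and one between the replicate sets therefore cannot be told apart. Of the 52 tested pairs 4 were called, 2 higher and 2 lower in females, and 17 had an unadjusted p under 0.05. DESeq2 called 0. The values of 22 pairs did not overlap between the sexes. Over all tested genes of a class, 0.0579 to 4.72% were called, 1.46 to 17.3% had an unadjusted p under 0.05 and 29.0 to 43.5% did not overlap.

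Grm8 was higher in females in D2-MSN-like nuclei, at 136 and 126 CPM in the female and 62.3 and 103 CPM in the male libraries. The groups did not overlap, and the log2 difference was 0.70 (SE 0.09, edgeR adjusted p = 6.80e-13). It was the only call among 5 receptors where 2.27% of all genes were called, and 3 of the 5 did not overlap (39.5% of all genes). A Grm8 UMI was seen in 10.1%, 9.10%, 4.55% and 7.74% of nuclei after thinning (32.8%, 28.9%, 18.6% and 21.9% without), so the female libraries stood above the male ones at equal depth too. Without the saline male library the difference was 0.39 (edgeR adjusted p = 0.292).

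Grm8 in cluster 2 of the D1 class gave the same direction, with 24.9 and 34.5 CPM in females and 13.8 and 13.6 CPM in males (log2 1.14, SE 0.15, edgeR adjusted p = 2.21e-11). There 3.01% of all genes were called and 40.6% did not overlap. The difference was 0.90 to 1.35 when 1 library was left out and passed in 1 of these 4 fits, that without the saline female library. Without the cocaine female, saline male or cocaine male library the edgeR adjusted p was 0.0553, 0.484 and 0.508, and with DESeq2 the adjusted p was 0.746. In cluster 5, at 304 and 413 CPM in females and 299 and 291 CPM in males, the difference of 0.26 missed the threshold (edgeR adjusted p = 0.365), where 0.845% of all genes were called and 38.3% did not overlap. In Chst9/eccentric MSN-like nuclei the Grm8 difference was 0.33 without overlap (edgeR adjusted p = 0.336). Grm8 was the only receptor of 5 without overlap in that class (36.5% of all genes), and none was called (0.0957%). Whether the sex difference itself differs between these clusters was not tested.

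Astrocyte-like nuclei had less Grm3 in females, at 1475 and 1645 CPM against 2108 and 1972 CPM in males, without overlap (log2 -0.40, SE 0.10, edgeR adjusted p = 0.00433). Grm5 was lower there too, at 107 and 180 CPM in females and 279 and 144 CPM in males, which overlap (log2 -0.57, SE 0.13, edgeR adjusted p = 0.00176). These were 2 calls among 3 receptors where 1.47% of all genes were called, and 2 of the 3 did not overlap (36.6% of all genes). For Grm3 the call was lost in each fit with 1 library left out (log2 -0.32 to -0.47), which also dropped the treatment covariate. It was lost too with all 4 libraries and no treatment covariate (log2 -0.40, edgeR adjusted p = 0.512). For Grm5 the difference without the saline male library was 0.0055, and without the saline female library -0.27 (edgeR adjusted p = 0.944).

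At resolution 1.0 the astrocyte-like class fell into 2 groups with different receptor levels. The larger, of 1249 nuclei, held Grm3 at 2094, 2014, 2646 and 2203 CPM and Grm5 at 70.2, 124, 190 and 122 CPM. The smaller, of 482 nuclei led by Lama2 and Sntg1, held Grm3 at 640, 531, 653 and 714 CPM and Grm5 at 155, 350, 523 and 262 CPM. It had 180, 120, 113 and 69 nuclei, so its share of the class was highest in saline females, the library with the least Grm3. In each group both female Grm3 values were below both male ones.

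Eccentric/D1 MSN-like nuclei had more Grm5 in females, at 1811 and 1502 CPM against 963 and 873 CPM in males, without overlap (log2 0.85, SE 0.18, edgeR adjusted p = 0.000360). It was 1 call among 2 receptors, where 1.51% of all genes were called and 35.4% did not overlap. The call was lost in each fit with 1 library left out (log2 0.69 to 0.98), which also dropped the treatment covariate. It was lost too with all 4 libraries and no treatment covariate (log2 0.84, edgeR adjusted p = 0.220). The class had 42, 88, 108 and 77 nuclei, the fewest in saline females.

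No receptor was called between the sexes in the other classes. In D1-MSN-like nuclei 2 of 5 did not overlap (all genes 40.3%, called 0.0979%), among them Grm4 at 53.7 and 50.5 CPM in females and 40.7 and 44.9 CPM in males (log2 0.30, SE 0.09, edgeR adjusted p = 0.278). In D2/eccentric MSN-like nuclei 3 of 4 did not overlap (35.4%, called 0.292%), and in oligodendrocyte-like nuclei 1 of 4 (43.5%, called 4.72%). The oligodendrocyte-like one was Grm3, at 7273 and 6620 CPM in females and 6408 and 6121 CPM in males (log2 0.17, SE 0.06, edgeR adjusted p = 0.114), opposite in sign to astrocyte-like nuclei. Among interneurons 2 of 5 did not overlap in Pthlh (33.5%, called 0.227%) and 1 of 3 in Sst interneuron-like nuclei (33.2%, called 0.212%). The Sst one was Grm8, at 356 and 282 CPM in females and 119 and 273 CPM in males (log2 0.78, SE 0.21, edgeR adjusted p = 0.0692). The counts were 4 of 6 in other GABAergic (32.8%, called 0.0661%), 1 of 5 in glutamatergic-like (29.0%, called 0.0579%), 1 of 3 in oligodendrocyte precursor-like (37.9%, called 0.536%) and 0 of 2 in microglia-like nuclei (35.8%, called 0.398%). Over all nuclei 3 of 6 did not overlap (45.7%, called 0.157%).

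The signalling partners of the receptors were read from 34 listed genes, among them genes of the Gq and phospholipase pathway, of the Gi/o and cyclase pathway, of the postsynaptic scaffold, and group III partners (Pick1, Grip1, Elfn1, Elfn2). In D1-MSN-like nuclei 32 were tested and 1 passed (0.158% of all genes), Homer1, whose protein links Grm5 to the postsynaptic scaffold and whose short form is induced by activity. It rose from 616 and 585 CPM in the saline libraries to 924 and 813 CPM in the cocaine libraries, without overlap (log2 0.51, SE 0.07, edgeR adjusted p = 0.0445). The counts do not tell its short and long forms apart. None of the other tested partners was called there. The median log2 difference of the 32 was -0.02 and that of all tested genes 0.00. Single genes were followed through DESeq2, the left-out libraries and the other alternatives for the receptors only. The Homer1 call and the partner calls in other classes were not checked in this way.

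In D2-MSN-like nuclei 0 of 30 tested partners passed (0.798% of all genes), with a median of -0.09 against 0.00 over all genes. Homer1 was at 550 and 605 CPM after saline and 621 and 724 CPM after cocaine, which do not overlap (log2 0.17, SE 0.07, edgeR adjusted p = 0.321). Over all nuclei 0 of 34 passed (0.0484%). In other classes a few partners passed, and those given here were named after their values were seen. The counts were 1 of 25 in D2/eccentric MSN-like (0.243% of all genes), 2 of 28 in Pthlh interneuron-like (1.82%), 2 of 25 in astrocyte-like (1.37%) and 2 of 22 in eccentric/D1 MSN-like nuclei (1.66%). Homer1 rose in D2/eccentric MSN-like nuclei, from 602 and 535 CPM to 739 and 887 CPM (log2 0.49, SE 0.11, edgeR adjusted p = 0.0363). In astrocyte-like nuclei Plcb1, a phospholipase C, fell from 3271 and 2656 CPM to 2486 and 2075 CPM (log2 -0.41, SE 0.09, edgeR adjusted p = 0.00217), and the scaffold gene Dlgap1 fell from 512 and 439 CPM to 355 and 370 CPM (log2 -0.43, SE 0.11, edgeR adjusted p = 0.00832). In Pthlh interneuron-like nuclei Itpr1, an internal calcium channel gated by the Gq pathway, rose from 105 and 87.8 CPM to 201 and 185 CPM (log2 0.95, SE 0.16, edgeR adjusted p = 0.000271), and Grip1 fell by 0.29 on the log2 scale (SE 0.08, edgeR adjusted p = 0.0411). The Pthlh interneuron-like sums hold the Reln-led group described above, with 6, 49, 3 and 20 nuclei in the 4 libraries. Its part in the Itpr1 and Grip1 differences was not tested. In eccentric/D1 MSN-like nuclei Homer1 was at 234, 959, 172 and 238 CPM, so the cocaine female library stood apart (log2 1.34, SE 0.23, edgeR adjusted p = 9.77e-07). Dlgap1 fell by 1.08 there (SE 0.25, edgeR adjusted p = 0.00239).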

How the data were processed

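The authors deposited, for each of the 4 libraries, a matrix of raw UMI counts per gene and barcode, made with Cell Ranger 6.1.2 per the file headers, on build rn7 per the submitters' processing notes. How intronic reads were handled is not given in the sources used here. No coordinates or sequences are printed, and reads of overlapping genes cannot be told apart by these counts.

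From these counts, barcodes were kept if they had 200 genes or more and no more than 5% of UMIs from mitochondrial genes, and the top 0.8% per 1000 nuclei by Scrublet score were removed as doublets (1381, beside 4 that failed the filters). Nuclei were clustered with scanpy 1.11.5 (2000 variable genes without the family, immediate-early, mitochondrial and sex-linked genes, 30 components, 15 neighbours, Leiden resolution 0.5). Clusters were named from 80 of 85 listed markers, with score limits set after the data were seen, and 5 clusters (405 nuclei) were left unnamed. Sums per class and library were tested with edgeR 4.0.16 (TMM, filterByExpr, sex and treatment), checked on simulated counts. The SE is the size of the log2 fold change over the root of F. Counting intervals are at 95%, with 0.5 added to each count, and cover counting error only.

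Members, marker lists and pathway lists were chosen with earlier results of these data known. Every member was examined in every class. Of the pathway genes, those called in D1- or D2-MSN-like nuclei or over all nuclei were to be named, and others are said to be chosen after their values were seen. For each member the 3 most similar genes with a symbol were to be named. Some results that this rule covers are not reported here. Replicate numbers stand for sex, and each library pools 4 rats, so p-values concern pools and not single rats. They are not a measure of a gene's own spread between pools, which is taken mostly from the trend over other genes. In some classes, among them D2-MSN-like and astrocyte-like nuclei, the spread was taken from that trend alone. Alternatives were DESeq2 1.42.0, RLE scaling, a minimum of 10 UMIs without filterByExpr, no covariate, no doublet removal, at least 500 genes per nucleus, resolution 1.0, a gate on single nuclei by marker counts, and each library left out. Fits with 1 library left out also dropped the covariate (sex, or treatment in the sex comparison). Their changes therefore cannot be credited to the library alone. The alternatives for the sex comparison were added after seeing the data.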

Additional observations from a re-analysis of the deposited data

Results flagged for a closer look

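In 7 of the 78 receptor and class pairs the cocaine to saline ratio went in opposite directions in the 2 sexes, with the counting intervals of both sexes away from 0. Each rests on 1 library against 1 in each sex, and the difference between the sexes was not tested. The share of all genes with this pattern was not counted, so 7 of 78 cannot be called many or few. Counting intervals are narrow where UMIs are many, so small ratios can meet the rule. Grm8 in D1-MSN-like nuclei had a log2 ratio of 0.95 in females and -0.34 in males, and Grm7 in the same class 0.03 and -0.16. In astrocyte-like nuclei the ratio of Grm5 was 0.76 in females and -0.95 in males, and that of Grm3 was 0.16 and -0.1. Grm7 in glutamatergic-like nuclei stood at 0.22 and -0.34, in a class with 30 to 252 nuclei per library. In other GABAergic nuclei Grm5 stood at -0.06 in females and 0.4 in males, and Grm7 at 0.06 and -0.32.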

How the results depend on the processing

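For cocaine against saline 3 receptor and class pairs were called in the main fit. With RLE scaling edgeR called 2, both among the 3. The minimum of 10 UMIs called 4 of 65 pairs tested, and 2 of them were among the 3. A minimum of 500 genes and resolution 1.0 called 2 each, all among the 3. DESeq2 called 0, and so did the fit without the sex covariate, which is the fit without the replicate block. Keeping doublets called 1, Grm7 in astrocyte-like nuclei (log2 0.82, edgeR adjusted p = 0.0390), which was not among the 3. The gate on single nuclei called 5 of 33 pairs tested, none of them among the 3. Leaving out 1 library gave 0 to 5. For females against males, with 4 called, DESeq2 called 0, the fit without the treatment covariate 1, the gate on single nuclei 9 of 33, and leaving out 1 library 0 to 4. The cause was not tested. These values reversed: Grm8 in Pthlh interneuron-like nuclei was -1.14 at resolution 1.0 and with at least 500 genes, and -0.42 under the gate. Grm8 in D1-MSN-like nuclei was -0.63 under the gate, which passed (edgeR adjusted p = 5.94e-06). Grm5 in astrocyte-like nuclei, females against males, ran from -1.01 to 0.0055 when 1 library was left out. Grm5 in microglia-like nuclei, females against males, was -0.63 with doublets kept. Of 740 alternative values for cocaine 87 changed sign, and of 728 for sex 67 did. With doublets kept, Grm5 was at 729 CPM in oligodendrocyte-like and 1111 CPM in microglia-like nuclei, and Grm7 at 695 and 779 CPM. Over all genes, DESeq2 called 8 in place of 21 in the D1-MSN-like class, where the alternatives ran from 0 to 401, and 1 in place of 100 in the D2-MSN-like class, where they ran from 0 to 131. At 254 UMIs, Grm2 was too sparse to test in all but 1 of 13 classes.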
